A study of Mus musculus with 8 samples.

Results

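AMP-activated protein kinase (AMPK) is the fuel gauge of the cell, and the genes described here encode 6 of its subunits and the kinases LKB1 and CaMKK2 that switch it on. They are the 8 genes of the deposited table named Prkaa1, Prkaa2, Prkab1, Prkab2, Prkag1, Prkag2, Stk11 and Camkk2, out of 54532 genes in all, and they were chosen by name. RNA of brown adipose tissue was sequenced in 4 transgenic mice labelled TG (CLCF1-ATG) and in 4 wild-type mice labelled WT, numbered 1, 2, 3 and 5 in each group. CLCF1 belongs to the cytokines related to interleukin-6, and the question stated for the series is how it impairs brown fat. The promoter of the transgene, the founder line, and the age, sex and treatment of the mice were not given in the sources used here.

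AMPK is a trimer. A catalytic alpha subunit (Prkaa1 or Prkaa2) is held by a beta scaffold (Prkab1 or Prkab2), which also binds glycogen, to a gamma subunit (Prkag1, Prkag2 or Prkag3) that binds AMP, ADP and ATP. When energy is low the trimer is phosphorylated in the activation loop of alpha, by LKB1 together with its partners STRAD and MO25, or by CaMKK2 when calcium rises, and it then slows lipid synthesis and favours fuel oxidation. In adipocytes of mice AMPK is known to be needed for the upkeep of mitochondria and for heat production. Transcript levels do not measure the protein, its phosphorylation or its activity.

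Values are FPKM (fragments per kilobase of gene, scaled for depth), a unit that allows for gene length through 1 length per gene. That length is the same whichever transcripts of a gene are in use, so levels of different genes can be compared only roughly. This limit also holds for the class sums, the shares and the order of levels below. Whole reads could be recovered from the FPKM values, and they numbered 18494022 to 20183840 per TG library and 13734231 to 15751302 per WT library. Clcf1 stood between 78.7 and 89.9 FPKM in the TG libraries, against 0.434 to 3.40 FPKM in the WT libraries, so it separated the labelled groups in all 8 mice. Reads from the mitochondrial chromosome made up 6.09% to 7.34% of the TG libraries and 24.1% to 37.5% of the WT libraries. Summed marker levels of brown adipocytes were 141 to 316 FPKM in TG and 3045 to 4788 FPKM in WT (8 markers, 5 lower, 1 higher), and those shared by all adipocytes 19804 to 31243 and 6799 to 8911 FPKM (7 of 8 higher). All 6 endothelial markers were lower (20.4 to 37.3 FPKM in TG and 113 to 258 FPKM in WT), as were all 5 tested of the smooth muscle and pericyte list (18.99 to 40.6 and 107 to 140 FPKM) and all 5 tested of the erythroid list (1530 to 1901 and 5111 to 12892 FPKM). Of the Schwann cell list 1 of 3 tested was lower (7.02 to 13.5 and 58.2 to 82.9 FPKM). Macrophage markers were higher in 5 of 8 (362 to 440 FPKM in TG and 211 to 352 FPKM in WT), T or B cell markers in 2 of 3 tested (102 to 199 and 18.8 to 25.8 FPKM), and fibroblast markers higher in 2 and lower in 1 of 6 (170 to 247 and 109 to 192 FPKM). Both tested neutrophil markers, S100a8 and S100a9, were lower (3.81 to 25.1 and 11.9 to 368 FPKM), but lost the call in 5 and 6 of 24 alternatives, among them leaving out TG 2 or TG 3 (limma adjusted p up to 0.0654 and 0.0682). Of the neuron markers 5 of 7 stayed under 0.5 FPKM in every library. Skeletal muscle markers did not pass in any of 8 tested, but their sum was 1812 FPKM in TG 5 and 3247 FPKM in WT 2 and between 12.3 and 338 FPKM in the other libraries. Calls of other markers were lost too: Adgre1, Csf1r, Lyz2 and Cd163 of the macrophage list in 7, 3, 2 and 1 of 24 alternatives and Fabp4 of the shared adipocyte list in 3 of 24. Lhx8 (brown adipocytes), Pdgfrb (pericytes), Pdgfra (fibroblasts) and Emcn (endothelium) lost theirs in 13, 11, 8 and 5 of 23, and Cd3d (T cells) in 6 of 19. Beside these marker counts, 22.3% of all tested genes were called higher and 21.8% lower. The part of these cell types in the results below was not tested, and fewer cells of a type and less RNA per cell cannot be told apart in RNA of whole tissue.

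Of the 8 genes, 2 rose in TG brown fat (Prkaa2 and Camkk2), 4 fell (Prkab1, Prkag1, Prkag2 and Stk11) and 2 did not pass the test (Prkaa1 and Prkab2). The test was limma on log2(FPKM + 1) over the whole table with Benjamini-Hochberg adjustment at 0.05, and a log2 change is the TG mean minus the WT mean on that scale, which understates the change of low genes. All 8 passed the filter of 0.5 FPKM in 4 libraries. In this comparison 44.1% of the 12508 tested genes were called, 22.3% higher and 21.8% lower in TG, so a count of 2 higher among 8 is near the share of all genes, while 4 lower among 8 is above it. The 4 TG values lay wholly apart from the 4 WT values in 6 of the 8 genes, against 42.6% of all tested genes. The median log2 change of the 8 was -0.46, beside 0.01 over all genes tested. Some ways of scaling the libraries move these counts. Over all genes 2788 were called higher and 2725 lower in the deposited FPKM. Rescaling without the most abundant genes gave 5318 and 1527 of 12560 genes tested, and division by all recovered reads 5570 and 1416 of 12583. The genes left out of that rescaling were the 20 most abundant, all of the mitochondrial chromosome and the haemoglobin genes (Hba and Hbb). Under that rescaling and that division the median of all genes was 0.28 and 0.32. They gave 3 higher and 4 lower, and 3 higher and 3 lower, among the 8. Scaling by the trimmed mean of M values, by the upper quartile or by quantiles each gave 2 higher and 4 lower among the 8. So did division by reads outside the mitochondrial chromosome. Over all genes these gave 2830 to 3109 higher and 2543 to 2725 lower.

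**Figure D1:**
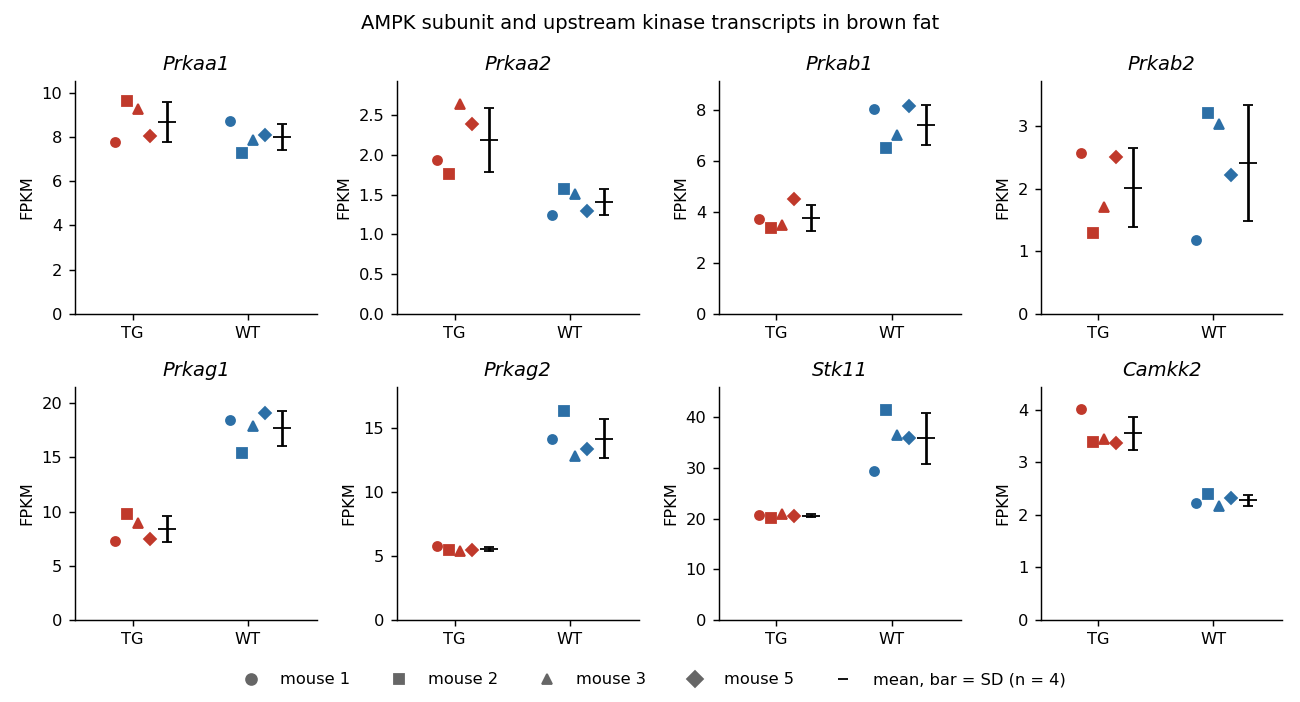
FPKM (y axis, from 0) of each of the 8 genes in the 4 TG mice (left) and the 4 WT mice (right), with 1 symbol per mouse number and the mean with its SD beside them. The groups stand apart for Prkaa2, Prkab1, Prkag1, Prkag2, Stk11 and Camkk2, and overlap for Prkaa1 and Prkab2.

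Of the catalytic subunits Prkaa2 rose and Prkaa1 did not pass. Prkaa1, which encodes alpha-1 (ENSMUSG00000050697, chromosome 15, 5143861 to 5181899, plus strand), had 7.79, 9.65, 9.28 and 8.05 FPKM in TG 1, 2, 3 and 5, against 8.72, 7.28, 7.89 and 8.09 FPKM in WT 1, 2, 3 and 5. The groups overlapped, and the log2 change was 0.11 with an SE of 0.104 (limma adjusted p = 0.438) and did not pass. With division by all recovered reads, or with rescaling without the most abundant genes, Prkaa1 was called higher (adjusted p = 0.00241 and 0.00299, over a range of 0.00241 to 0.722 for all alternatives), but relative to the raised median of all genes Prkaa1 then stood at 0.17 and 0.16.

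Prkaa2, which encodes alpha-2, the catalytic form that predominates in skeletal and heart muscle (ENSMUSG00000028518, chromosome 4, 105029874 to 105109890, minus strand), had 1.94, 1.77, 2.65 and 2.40 FPKM in TG 1, 2, 3 and 5, against 1.25, 1.58, 1.51 and 1.29 FPKM in WT 1, 2, 3 and 5. Every TG library was above every WT library, though TG 2 and WT 2 were close. The mean was 2.19 ± 0.406 FPKM in TG and 1.41 ± 0.161 FPKM in WT (SD, n = 4 each), and the log2 change of 0.40 (SE 0.119) passed with a limma adjusted p of 0.0221. This call was the least secure of the 6. It was lost without TG 3 (adjusted p = 0.0659), without TG 5 (0.0651), with no filter on low values (0.0586) and with the mouse number as a replicate block (0.0505). Muscle-marker levels were high in WT 2 and TG 5, and without both libraries the change of Prkaa2 was as large (0.40) with an adjusted p of 0.0832.

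The scaffold subunits differed from each other. Prkab1, which encodes beta-1 (ENSMUSG00000029513, chromosome 5, 116013586 to 116024508, minus strand), had 3.73, 3.36, 3.48 and 4.50 FPKM in TG 1, 2, 3 and 5, against 8.03, 6.52, 7.02 and 8.15 FPKM in WT 1, 2, 3 and 5. All TG libraries were below all WT libraries, and the TG mean was 50.7% of the WT mean. The log2 change was -0.82 (SE 0.115, limma adjusted p = 0.000397).

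Prkab2, which encodes beta-2, the scaffold typical of muscle (ENSMUSG00000038205, chromosome 3, 97658193 to 97673812, plus strand), had the highest SD relative to its mean of the 8 genes in both groups. It had 2.57, 1.29, 1.70 and 2.51 FPKM in TG 1, 2, 3 and 5, against 1.18, 3.21, 3.04 and 2.21 FPKM in WT 1, 2, 3 and 5. WT 1 and TG 2 were the lowest, WT 2 and WT 3 the highest, and the groups overlapped widely. These values rest on 139 to 312 recovered reads in TG and 71 to 220 in WT. At -0.16 (SE 0.228) the log2 change did not pass in limma (adjusted p = 0.609).

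The gamma subunits, which carry the nucleotide sensors, fell together and by the most. Prkag1, which encodes gamma-1 (ENSMUSG00000067713, chromosome 15, 98812797 to 98831521, minus strand), had 7.31, 9.77, 8.97 and 7.48 FPKM in TG 1, 2, 3 and 5, against 18.4, 15.4, 17.9 and 19.1 FPKM in WT 1, 2, 3 and 5. The TG mean was 47.4% of the WT mean with no overlap, and the log2 change was -0.999 (SE 0.119, limma adjusted p = 0.000152).

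Prkag2, which encodes gamma-2 (ENSMUSG00000028944, chromosome 5, 24862744 to 25100642, minus strand), had 5.77, 5.46, 5.397 and 5.47 FPKM in TG 1, 2, 3 and 5, against 14.2, 16.3, 12.8 and 13.4 FPKM in WT 1, 2, 3 and 5. The TG libraries were nearly equal to each other and all far below the WT libraries. At 38.96% of the WT mean, with -1.21 as its log2 change (SE 0.0995, limma adjusted p = 1.64e-05), it was the lowest of the 8 genes relative to WT. Its locus has several annotated starts, RefSeq giving 3 promoters, and the table holds 1 value for all its transcripts, so long and short gamma-2 forms are not separated.

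A transcript on the opposite strand of Prkag2 was lower too. Prkag2os1 (chromosome 5, 24902569 to 24906850, plus strand), looked at because it overlaps Prkag2 and named after its values were seen, lies inside the Prkag2 gene and ends 1659 bases downstream, in the direction of Prkag2, of that gene's innermost RefSeq start. It had 0, 2, 7 and 0 recovered reads in TG 1, 2, 3 and 5, against 30, 24, 17 and 33 reads in WT 1, 2, 3 and 5. The 0 reads of TG 1 and TG 5 allow up to 0.127 and 0.132 FPKM (3 reads, counting error only), against 1.29 to 2.91 FPKM in the WT libraries. The log2 change was -1.49 (SE 0.179, limma adjusted p = 0.000161). The strand setting of the counting was not given in the sources used here, so reads of a gene and of its antisense partner cannot be told apart. Prkag2 itself rested on 749 to 891 reads per TG library and 995 to 1423 per WT library, many more than Prkag2os1.

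The third gamma gene, Prkag3, which in mice is largely a gene of fast skeletal muscle, was near the limit of detection and was not tested. It had 5, 3, 14 and 31 recovered reads in TG 1, 2, 3 and 5, against 0, 9, 2 and 0 reads in WT 1, 2, 3 and 5. The highest values of each group were in TG 5 and WT 2, the libraries with the highest muscle-marker sums.

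The kinases that activate AMPK went in opposite directions. Stk11, which encodes LKB1 (ENSMUSG00000003068, chromosome 10, 80115803 to 80130682, plus strand), had 20.6, 20.2, 20.9 and 20.5 FPKM in TG 1, 2, 3 and 5, against 29.4, 41.5, 36.6 and 35.95 FPKM in WT 1, 2, 3 and 5. TG mice were all but equal and below every WT mouse, of which WT 1 was the lowest. The log2 change was -0.76 (SE 0.113, limma adjusted p = 0.000545). Division by all recovered reads ended the call (change -0.35, adjusted p = 0.0587, over a range of 0.000270 to 0.0587); relative to the shifted median of all genes the change was then -0.67.

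Camkk2, which encodes the calcium-dependent activator CaMKK2 (ENSMUSG00000029471, chromosome 5, 122731170 to 122779409, minus strand), had 4.01, 3.38, 3.43 and 3.37 FPKM in TG 1, 2, 3 and 5, against 2.22, 2.40, 2.18 and 2.32 FPKM in WT 1, 2, 3 and 5. All TG libraries were higher than all WT libraries, TG 1 standing somewhat above the other TG mice. The TG mean was 156% of the WT mean, and the log2 change of 0.47 (SE 0.0946) had a limma adjusted p of 0.00312. Camkk2 is also expressed in macrophages and brain. Of the macrophage list 5 of 8 genes were higher in TG and 3 did not pass, with 4 of the 5 calls lost in some alternative, and their part in the result was not tested. The neuron list summed to 0.913 to 1.39 FPKM in TG and 0.581 to 1.65 FPKM in WT.

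**Figure D2:**
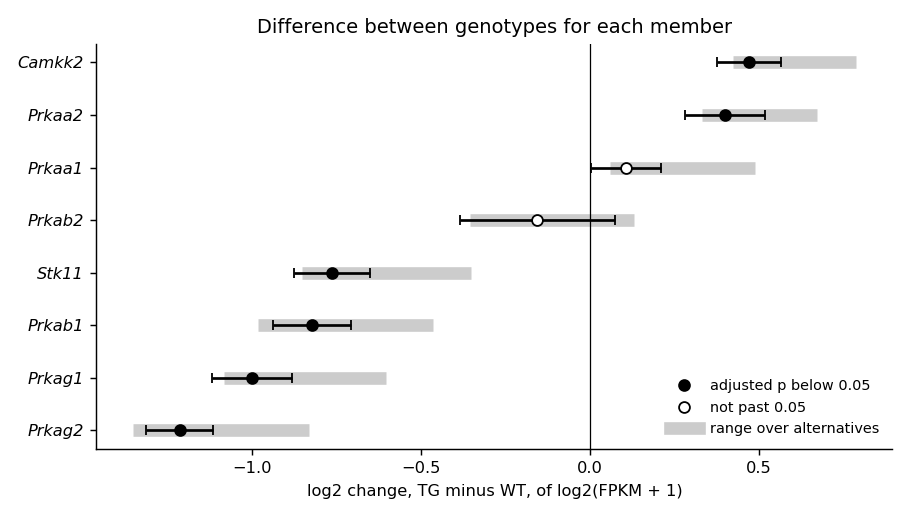
Log2 change of each gene, TG minus WT, in units of log2(FPKM + 1), (point with its SE; filled where the adjusted p is below 0.05), with a grey bar for the range over the alternative settings. The bars of Prkab1, Prkag1, Prkag2 and Stk11 lie wholly below 0, those of Prkaa1, Prkaa2 and Camkk2 wholly above it, and that of Prkab2 crosses it.

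Quotients taken within a library do not depend on how the libraries are scaled to each other. Sums over a class do depend on it. They were compared only in the deposited FPKM, so whether the groups overlap is stated for that scaling alone. Alpha transcripts (Prkaa1 plus Prkaa2) summed to 10.9 ± 0.979 FPKM in TG and 9.40 ± 0.451 FPKM in WT, with overlap. Beta transcripts summed to 5.78 ± 1.07 FPKM in TG and 9.84 ± 0.491 FPKM in WT, and gamma transcripts (Prkag1 plus Prkag2) to 13.9 ± 1.09 FPKM in TG and 31.9 ± 0.891 FPKM in WT, both without overlap (SD, n = 4 each). The quotient of alpha over gamma was therefore 0.745, 0.749, 0.830 and 0.806 in TG 1, 2, 3 and 5, against 0.306, 0.279, 0.306 and 0.289 in WT 1, 2, 3 and 5. It was 2.65 times as high in TG on average. These sums are a description and were not tested.

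**Figure D3:**
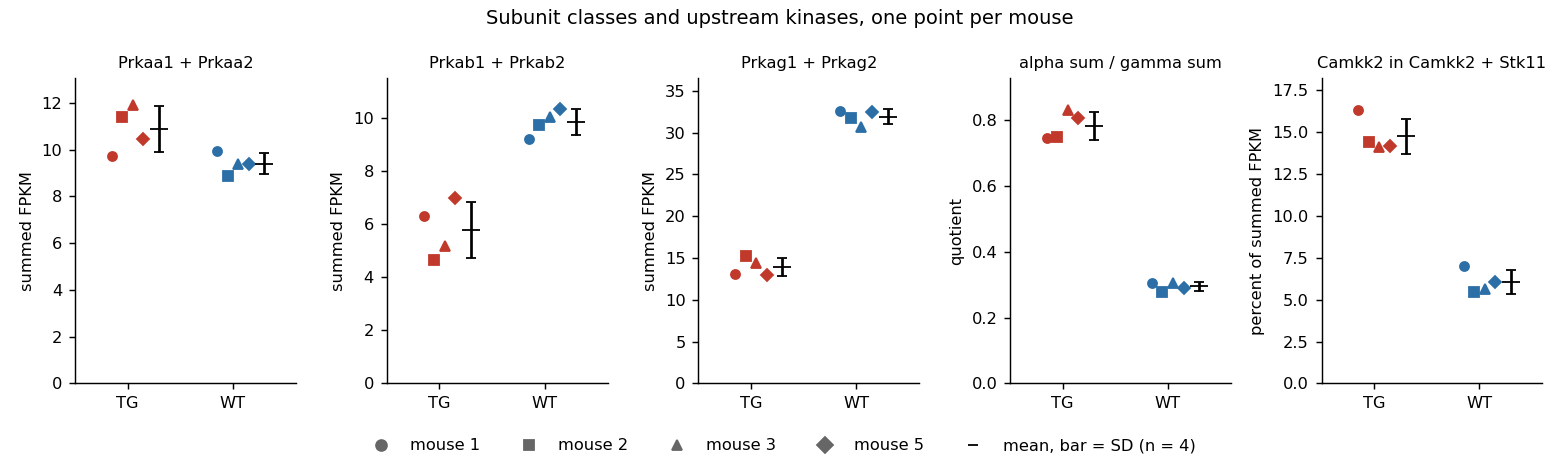
Summed FPKM of the alpha, beta and gamma subunit genes, the quotient of the alpha over the gamma sum, and the share of Camkk2 in the sum of Camkk2 and Stk11 (y axes from 0), 1 symbol per mouse, TG left of WT, with mean and SD. TG mice lie below WT mice in the beta and gamma sums and above them in the last 2 panels.

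Which isoform made up a class was compared as the log2 ratio of 2 genes in each library, with an exact two-sided permutation test (70 assignments of the mice) and with adjustment over the 4 ratios. The smallest p that 4 against 4 mice allow is 0.0286. Adjusted over the 4 ratios, a ratio that reaches it alone comes to 0.114, so it could not pass whatever its size. Camkk2 over Stk11 was at that smallest p. Its mean log2 ratio was -2.54 ± 0.117 in TG and -3.97 ± 0.171 in WT, a difference of 1.43. The ratio was higher in 4 of 4 TG mice than in any WT mouse (exact permutation, adjusted p = 0.114, which does not pass). Camkk2 thus made up 14.1% to 16.3% of the summed FPKM of both kinases in TG and 5.47% to 7.004% in WT.

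Within the subunit classes the isoform ratios overlapped between the groups. Prkaa2 made up 20.1% ± 3.36 of alpha FPKM in TG and 15.04% ± 2.35 in WT (exact permutation p = 0.0857, adjusted p = 0.171). Prkab2 made up 34.3% ± 5.45 of beta FPKM in TG and 24.3% ± 9.14 in WT (exact permutation p = 0.143, adjusted p = 0.190). For gamma the share of Prkag2 was 39.9% ± 3.88 in TG and 44.5% ± 4.73 in WT (exact permutation p = 0.257, adjusted p = 0.257; SD, n = 4 each throughout). A p above the threshold in a design this small does not show that the mixes were alike.

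The order of the levels changed with these shifts. In TG it ran Stk11, Prkaa1, Prkag1, Prkag2, Prkab1, Camkk2, Prkaa2, Prkab2, where the ranges overlapped between Prkaa1 and Prkag1, between Prkab1 and Camkk2 and between Prkaa2 and Prkab2. In WT it ran Stk11, Prkag1, Prkag2, Prkaa1, Prkab1, Prkab2, Camkk2, Prkaa2, with overlap between Prkag1 and Prkag2, between Prkaa1 and Prkab1 and between Prkab2 and Camkk2. Prkaa1 was thus at the level of Prkag1 in TG and below both gamma genes in every WT mouse.

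The sequences before the annotated starts are shown for the 4 genes that fell, since they moved together. RefSeq (GRCm38.p6) gives promoters for all 8 genes, 10 in number with 3 for Prkag2. The 250 bases before each start were searched on both strands for the letters of the ETS motif (CCGGAAG), the CCAAT box (CCAAT), the estrogen-related receptor motif (TNAAGGTCA), the GC box (GGGCGG), the TATA box (TATAAA), the NRF1 motif, STAT (TTCNNNGAA) and the E-box (CACGTG). Capitals below mark the first 3 of these, on either strand. Of the 3 Prkag2 windows only that of the middle start is printed. It holds the estrogen-related receptor match, and which start is in use in these mice was not measured. The Prkag1 stretch is chr15:98831522-98831758 (minus strand), the 237 of 250 bases that lie outside the gene as the deposited table bounds it, that of Prkag2 lies before the middle of its starts at chr5:24995754-24996003 (minus strand), and that of Stk11 is chr10:80115545-80115794 (plus strand). For Prkab1 30 bases around its match are given, chr5:116024447-116024476 (minus strand), which lie before the RefSeq start but within the bounds of the gene in the table.
Prkab1: gctgggcccggCCGGAAGcggaagtggcta
Prkag1: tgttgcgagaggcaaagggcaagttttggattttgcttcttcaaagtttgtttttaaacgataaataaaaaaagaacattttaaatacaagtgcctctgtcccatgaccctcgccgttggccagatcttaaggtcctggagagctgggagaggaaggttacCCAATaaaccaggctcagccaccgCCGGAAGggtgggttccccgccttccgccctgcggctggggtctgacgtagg
Prkag2: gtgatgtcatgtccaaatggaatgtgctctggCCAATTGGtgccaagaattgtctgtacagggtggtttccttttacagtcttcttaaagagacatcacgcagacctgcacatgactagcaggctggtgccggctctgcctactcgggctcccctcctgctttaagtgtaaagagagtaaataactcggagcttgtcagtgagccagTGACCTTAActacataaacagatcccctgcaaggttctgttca
Stk11: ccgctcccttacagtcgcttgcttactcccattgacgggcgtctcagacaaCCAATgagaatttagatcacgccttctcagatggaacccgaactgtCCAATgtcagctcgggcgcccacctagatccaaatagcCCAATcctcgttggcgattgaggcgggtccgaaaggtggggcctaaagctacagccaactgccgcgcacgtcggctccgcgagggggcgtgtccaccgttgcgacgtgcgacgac

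Prkab1 and Prkag1 each held 1 match to the ETS letters, which 6.91% of 32851 RefSeq promoters hold, and the other 8 windows held none. Stk11 held 3 matches to the CCAAT box and Prkag1 held 1, against 33.8% of all promoters with a match; the first start of Prkag2 held 1, and the middle start 2 that overlap on opposite strands. The middle start of Prkag2 also held the only match to the estrogen-related receptor letters, printed as the reverse complement TGACCTTAA, which 1.14% of all promoters hold. The windows of Prkaa2 and Camkk2, the genes that rose, matched only the GC box (2 and 1 matches), which 32.7% of promoters hold. The GC box was not particular to them. It was also matched in Prkaa1 (5 matches), Prkab2 (5), Prkag1 (1) and the first and innermost starts of Prkag2 (2 and 1). Prkab1, Stk11 and the middle start of Prkag2 had no match to it. No window matched the TATA box (12.4% of all promoters), NRF1 (3.74%), STAT (7.02%) or the E-box (6.02%). A match describes letters in a window and is not a measured site.

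Of the 4 partners of LKB1 in its active complex, 2 fell and the other two did not pass. Stradb, a pseudokinase that binds LKB1, was at 2.67 ± 0.222 FPKM in TG and 7.17 ± 1.39 FPKM in WT (log2 change -1.14, limma adjusted p = 0.000146), and Cab39, which encodes the scaffold MO25, at 14.7 ± 0.895 FPKM in TG and 23.1 ± 0.628 FPKM in WT (-0.62, adjusted p = 0.000389). Cab39 did not pass when values were divided by all recovered reads (adjusted p = 0.0925, its highest in any alternative). Strada stood at 1.46 ± 0.316 FPKM in TG and 0.887 ± 0.411 FPKM in WT (adjusted p = 0.0811) and Cab39l at 7.65 ± 0.384 and 7.29 ± 1.11 FPKM (adjusted p = 0.649). With the recovered-read and the abundant-gene scaling 2 of the 4 partners were called higher. Those scalings called 5570 of 12583 and 5318 of 12560 genes higher over all. Without rescaling, 22.3% of all tested genes were called higher and 21.8% lower. Map3k7, which encodes the kinase TAK1, stood at 6.41 ± 0.220 FPKM in TG and 6.27 ± 0.391 FPKM in WT (adjusted p = 0.821), and Camkk1 did not reach the filter, with 12 to 23 reads per TG library and 1 to 16 per WT library.

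Among 13 tested regulators that bind AMPK or act on its phosphorylation 4 rose, 6 fell and 3 did not pass (median -0.00). The shares over all genes were 22.3% higher and 21.8% lower. With either of the scalings that raise the median of all genes 6 regulators were called higher and 3 lower. Over all genes these scalings called 5318 higher and 1527 lower of 12560, or 5570 and 1416 of 12583. The sestrins, stress-induced proteins known to promote AMPK activity, were all higher in TG. Sesn2 was at 10.8 ± 2.29 FPKM in TG and 4.08 ± 1.62 FPKM in WT (log2 change 1.26, adjusted p = 0.00239 in limma), and Sesn1 at 6.10 ± 0.393 and 2.36 ± 0.496 FPKM (1.09, adjusted p = 0.000128). Sesn3, named after its values were seen, was at 2.19 ± 0.0909 FPKM in TG and 0.842 ± 0.206 FPKM in WT (0.80, adjusted p = 0.000319), and the calls of all 3 held under each alternative run. The folliculin complex, which binds AMPK, was lower: Flcn was at 6.10 ± 0.618 FPKM in TG and 17.3 ± 6.95 FPKM in WT (-1.30, adjusted p = 0.00141). Its partners Fnip1 and Fnip2, named after their values were seen, changed by -0.44 and -0.32 (adjusted p = 0.0321 and 0.0228), but lost the call in 8 and 7 of their alternatives, up to adjusted p values of 0.649 and 0.632. Cidea, a lipid droplet protein that is reported to bind the beta subunit and is a marker of brown adipocytes, was at 111 ± 39.5 FPKM in TG and 2031 ± 316 FPKM in WT (-4.24, adjusted p = 3.20e-06).

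Among the kinases that resemble AMPK and are activated by LKB1, 1 of 10 tested rose, 3 fell and 6 did not pass (median -0.23). Of all tested genes 22.3% rose and 21.8% fell. Sik2, the salt-inducible kinase abundant in fat, was at 7.35 ± 1.22 FPKM in TG and 2.55 ± 0.407 FPKM in WT (log2 change 1.23, limma adjusted p = 7.72e-05). Nuak2 was at 0.695 ± 0.225 FPKM in TG and 2.74 ± 1.04 FPKM in WT (-1.11, adjusted p = 0.00160). Sik1, a gene induced by cyclic AMP, changed by -0.84 (adjusted p = 0.0247) but lost the call in 9 of 23 alternatives, up to an adjusted p of 0.119. With either of the scalings that raise the median of all genes 3 were called higher and 1 lower, beside 5318 and 1527 of 12560 or 5570 and 1416 of 12583 genes.

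The genes of AMPK substrates showed no common direction, with 8 of 23 tested higher, 8 lower and 7 not passing (median -0.05). Acacb, the acetyl-CoA carboxylase that guards fatty acid entry into mitochondria, was at 12.2 ± 2.01 FPKM in TG and 44.95 ± 6.90 FPKM in WT (log2 change -1.80, limma adjusted p = 1.61e-05). Mlxipl, which encodes the glucose-responsive factor ChREBP, changed by -1.54 (adjusted p = 0.000223). Srebf1, which encodes a factor of lipid synthesis, was at 105 ± 14.2 FPKM in TG and 19.5 ± 4.35 FPKM in WT (2.39, adjusted p = 9.14e-06), and Insr, the insulin receptor gene, at 9.22 ± 0.530 and 3.41 ± 0.207 FPKM (1.21, adjusted p = 9.96e-06). Over all tested genes 22.3% were higher and 21.8% lower. With the recovered-read or the abundant-gene scaling the counts were 11 higher and 2 lower. Among all genes those scalings gave 5570 and 1416 of 12583, and 5318 and 1527 of 12560.

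**Figure D4:**
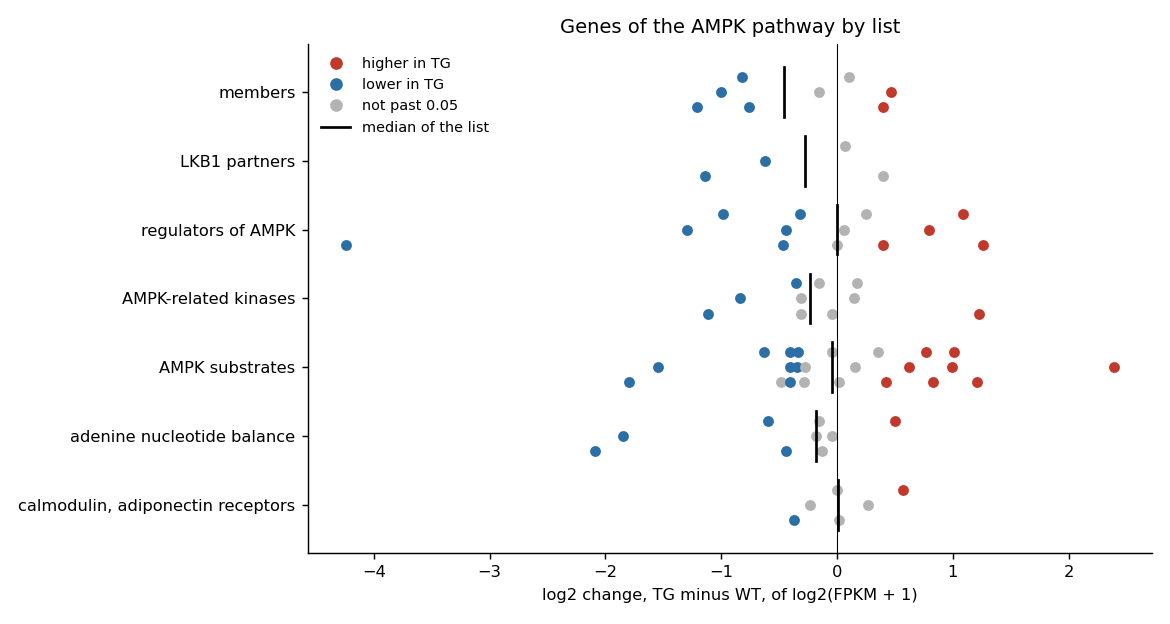
Log2 change (x axis, TG minus WT, log2(FPKM + 1) scale) of each tested gene of the pathway, 1 point per gene, grouped by list, with the median of each list as a black line. Members and partners of LKB1 have medians of -0.46 and -0.28, and the substrates spread from -1.80 to 2.39.

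Enzymes that set the balance of adenine nucleotides, the signal AMPK reads, were lower in 4 of 9 tested and higher in 1, with 4 not passing (median -0.18). All tested genes together were 21.8% lower and 22.3% higher by count. Ampd3, an AMP deaminase, was at 2.24 ± 0.634 FPKM in TG and 10.8 ± 2.85 FPKM in WT (log2 change -1.85, limma adjusted p = 7.62e-05), and Ak1, an adenylate kinase also abundant in muscle, at 4.27 ± 4.28 and 18.1 ± 7.55 FPKM (-2.09, adjusted p = 0.00530), highest in TG 5 and WT 2, the libraries with the most muscle-marker RNA. Adk, which makes AMP from adenosine, rose by 0.50 (adjusted p = 0.00813), a call that ended when WT 2 and TG 5 were left out (adjusted p = 0.0590, its highest in any alternative). The counts became 2 higher and 2 lower with rescaling without the most abundant genes (all genes: 5318 and 1527 of 12560). They became 1 higher and 2 lower with division by all recovered reads (all genes: 5570 and 1416 of 12583).

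Upstream signals of calcium and adiponectin gave 1 higher, 1 lower and 4 not passing of 6 (median 0.01), beside 22.3% higher and 21.8% lower over all tested genes. Calm2 stood at 90.3 ± 11.6 FPKM in TG and 90.3 ± 13.7 FPKM in WT (limma adjusted p = 0.987), and Calm3 at 45.9 ± 3.39 and 38.0 ± 3.87 FPKM (adjusted p = 0.0659). Of the receptors for adiponectin, a fat hormone that acts through AMPK, Adipor2 was higher, at 110 ± 19.4 FPKM in TG and 73.7 ± 13.4 FPKM in WT (log2 change 0.57, adjusted p = 0.0199), and Adipor1 lower, at 26.2 ± 2.10 and 34.2 ± 2.60 FPKM (-0.37, adjusted p = 0.0134). The call of Adipor2 was lost without TG 2 (adjusted p = 0.0576), and that of Adipor1 without WT 2 and TG 5 and with both median-raising scalings, its sign turning under the recovered-read scaling (adjusted p = 0.953). Appl1, the adaptor of these receptors, stood at 2.88 ± 0.292 FPKM in TG and 2.84 ± 0.156 FPKM in WT (adjusted p = 0.927). With either of those scalings 4 of the 6 genes were called higher, beside 5318 of 12560 and 5570 of 12583 over all genes.

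The genes whose profile over the 8 libraries came nearest to that of a member are given as a description. Likeness was the root mean square difference of log2(FPKM + 1) after each gene's own mean was subtracted, over 10798 protein-coding genes. Nearest to Prkaa1 were Smu1 (0.0466), Fbxo6 (0.0540) and Zscan29 (0.0543), and nearest to Prkaa2 were Cbll1 (0.0524), Eef1g (0.0572) and Ccnc (0.0743). Cdk12 (0.0498), Plpp6 (0.0542) and Virma (0.0547) were nearest to Camkk2. The uneven profile of Prkab2 had no gene as near, the first being Ndst1 (0.118), looked up after the values were seen, with 2.81, 1.77, 1.73 and 2.52 FPKM in TG 1, 2, 3 and 5, against 1.61, 3.18, 2.85 and 2.53 FPKM in WT 1, 2, 3 and 5. Like Prkab2, it was lowest in WT 1 and highest in WT 2.

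By position, Prkab1, Prkag2 and Camkk2 lie on chromosome 5, where Prkab1 and Prkag2 fell and Camkk2 rose. Prkaa1 and Prkag1 lie on chromosome 15, where Prkag1 fell and Prkaa1 did not pass. Genes on the opposite strand also overlap other members. Gm15938 at Prkaa1, Gm14508 at Prkab1, Gm17651 at Prkab2 and B130046B21Rik at Prkag1 had 0 to 6 reads in each library, and Cbarp at the end of Stk11 had 15 to 52.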

How the data were processed

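The authors deposited FPKM, 1 value per gene and library, with a position, strand and length per gene. Per the submitters' processing notes, the build was mm10 and the tools included featureCounts 1.5.0-p3, HISAT2 2.0.5 and bcl2fastq; annotation, strand setting and FPKM divisor were not given in the sources used here. Columns were matched to mice by name. Products of FPKM and gene length fell on whole steps in each library (largest distance from a whole number 8.61e-09), and these steps gave the reads. Set over the divisor that the steps imply, their total was 0.822 to 0.883 in TG and 1.02 to 1.22 in WT, so the deposited FPKM were not divided by this total.

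Genes at 0.5 FPKM or more in 4 or more libraries entered the limma test (version 3.58.1, R 4.3.3, two-sided, intensity trend) on log2(FPKM + 1), with Benjamini-Hochberg adjustment at 0.05 over all 12508 genes; the procedure was tested on simulated data. Ratios were compared with exact permutation tests. The labels do not say whether same-numbered mice are related. Each library is from a different mouse, and p-values refer to the variation among mice. Members, lists and tests were chosen with earlier results of these data known, and no list was tested as a set. Named are all members, every measured gene of lists with up to 6 (except 1 that is not reported here), and otherwise the 2 largest rises and falls past the threshold; Fnip1, Fnip2, Sesn3, Prkag2os1 and Ndst1 were added after their values were seen. A list's markers were summed per library for 12 cell types. RefSeq sequences are on GRCm38.p6, the assembly of mm10; of 54532 table genes 54409 were found in GENCODE M21, 98.3% at the same coordinates, all 8 members among them. Intervals and limits cover counting error only. Figures were drawn with matplotlib 3.10.9.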

Additional observations from a re-analysis of the deposited data

Results flagged for a closer look

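Camkk2 in TG mice was flagged because TG 1, at 4.01 FPKM, stood apart from TG 2, 3 and 5, at 3.37 to 3.43 FPKM: the gap to its nearest neighbour was 0.901 of the range of the group, above Dixon's 95% critical value for 4 samples. The log2 ratio of Camkk2 to Stk11 in TG was flagged for the same mouse (0.876). Of 26 groups looked at, chance flags about 1 in 20. Without TG 1 the log2 change of Camkk2 was 0.42 (limma adjusted p = 0.0116).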

How the results depend on the processing

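The falls of Prkab1, Prkag1 and Prkag2 and the rise of Camkk2 held under each alternative that could test them (24, 24, 24 and 23), with log2 changes of -0.98 to -0.46, -1.08 to -0.60, -1.35 to -0.83 and 0.42 to 0.79. The fall of Stk11 held in 23 of 24 and the rise of Prkaa2 in 18 of 23. The count of 2 genes called higher became 1 with no filter, with the replicate block, without WT 2 and TG 5 and at an adjusted p of 0.01, each time through the loss of Prkaa2, and 0 with a filter of 5 FPKM, since limma then tested neither Prkaa2 nor Camkk2. Leaving out each library gave 1 to 2 higher, TG 3 and TG 5 being those whose loss gave 1, and 4 lower throughout. Prkab2 changed sign with rescaling without abundant genes (0.0995) and with division by all recovered reads (0.131), not passing in either; the cause was not tested. With the replicate block, that is, with mice paired by number, the ratios keep the same differences by construction. The smallest exact p that 4 pairs allow is 0.125, so this test could not pass for any ratio. Camkk2 over Stk11 was at that smallest p. Same-numbered mice did not deviate together (correlations of -0.24 to 0.04), so the numbers are not taken as pairs. The fewest reads behind the 8 genes were those of Prkab2, 139 to 312 in TG and 71 to 220 in WT. Voom on the recovered reads gave 2 higher and 4 lower. Over all genes, 2788 higher and 2725 lower became 1445 and 1703 with the filter of 5 FPKM and 1827 and 1907 without WT 2 and TG 5.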
